A study of Homo sapiens with 3 samples.

Results

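The SLC25 family is the set of carrier proteins that move metabolites across the inner mitochondrial membrane. Its members were taken as every feature whose symbol is SLC25A followed by a number, which gave 48 of the 33538 features. They were followed through 3 single-cell RNA libraries of alpha cells grown from stem cells of HUES8, an established line of human embryonic origin. In the islet, alpha cells are the source of glucagon. All libraries belong to 1 group, labelled SC-A and numbered as replicates 1 to 3. No treatment, genotype change or second condition is part of that group, and the labels give neither the day of harvest nor whether the replicates were separate differentiations. The clusters were dispersed with the enzyme mix TrypLE and captured with the 10x Genomics 3' v3 chemistry, which counts each RNA molecule once as a unique molecular identifier (UMI). Every comparison below lies within these libraries, and p-values measure only the spread between them, which may be technical.

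The inner mitochondrial membrane is closed to most charged molecules, so fuel, nucleotides, phosphate and cofactors enter or leave the matrix through dedicated carriers. ADP/ATP carriers exchange spent ADP for new ATP, the phosphate carrier brings in the phosphate that ATP synthase needs, and the aspartate/glutamate and 2-oxoglutarate carriers form the malate-aspartate shuttle that passes reducing equivalents from glycolysis to the respiratory chain. Several of these jobs are shared by paralogs that differ between tissues. In islet cells, mitochondrial oxidation of nutrients is coupled to hormone secretion, and citrate export and glutamate handling have been studied for that reason.

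Barcodes needed 1000 or more detected genes and a mitochondrially encoded share of UMIs no higher than 20%, which left 1160, 1027 and 1466 of 2850, 2576 and 4257 in replicates 1, 2 and 3. Of 30139788, 31122791 and 30980799 UMIs, the kept barcodes held 18739098, 21126353 and 15346684. Libraries shared 7 barcode sequences, none of them among the kept barcodes. Kept cells were sorted into classes by their own UMIs. Glucagon cells had at least 5% of UMIs from GCG, GCG-intermediate cells 1 to 5%, and GCG-poor cells under 1%. INS cells had at least 1% insulin UMIs, TPH1 cells at least 3 UMIs of TPH1 (the first enzyme of serotonin synthesis), and collagen cells at least 5 UMIs and 0.1% from COL1A1, COL1A2 and COL3A1. No barcode met more than 1 of the last 3 rules. Replicates 1, 2 and 3 held 828, 811 and 908 glucagon, 135, 77 and 178 GCG-intermediate, 126, 50 and 176 GCG-poor, 26, 59 and 7 INS, 36, 20 and 107 TPH1 and 9, 10 and 90 collagen cells. INS cells of replicate 3 and collagen cells of replicate 1 fell under the minimum of 10 cells and stayed out of the tests. Alpha-cell markers other than GCG ran high in glucagon cells (TTR at 73151 to 74928 CPM, that is, UMIs per 1000000 UMIs of the library and class), enterochromaffin markers other than TPH1 summed to 1425, 1462 and 1454 CPM in TPH1 cells (TAC1 at 0) against 215 to 274 in glucagon cells, and mesenchymal markers other than the 3 collagens (DCN, LUM and PDGFRB) summed to 2062, 757 and 1621 CPM in collagen cells against 0.271 to 2.10. INS cells carried GCG at 138937, 120800 and 54187 CPM, so this class held glucagon RNA as well as insulin RNA.

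All 48 genes were found by identifier in GENCODE 29 (GRCh38) and all are protein coding. The genes that the results turn on lie on chromosome 12 at 98593591 to 98606379 (SLC25A3, ENSG00000075415), chromosome 4 at 185143241 to 185150382 (SLC25A4, ENSG00000151729), chromosome X at 119468400 to 119471319 (SLC25A5, ENSG00000005022), 1386152 to 1392724 (SLC25A6, ENSG00000169100) and 130339888 to 130373361 (SLC25A14, ENSG00000102078), chromosome 7 at 96120220 to 96322147 (SLC25A13, ENSG00000004864) and chromosome 1 at 9539482 to 9585179 (SLC25A33, ENSG00000171612). SLC25A5 has 9 and SLC25A6 has 6 named pseudogenes, none of which is a feature of the files. How reads from such copies were assigned is not given in the sources used here. Of the 48 members, 4 overlap another gene on the same strand and 21 one on the opposite strand.

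Promoter sequences are shown for 5 members whose levels differ between cell classes in ways described below: the phosphate carrier SLC25A3, the ADP/ATP carrier SLC25A4, the aspartate/glutamate carrier SLC25A13, and SLC25A14 and SLC25A33, which were lower together in 3 comparisons. Each is the part of the 250 bases before the RefSeq start (GRCh38.p14) that lies outside every GENCODE exon, on the gene's strand, 5′ to 3′. The windows of SLC25A5 and SLC25A6 lie wholly in annotated exons and are not shown. Capitals mark matches, on either strand, to TGCGCA (the core of the nuclear respiratory factor 1 site, its own reverse complement), CCGGAAG (an ETS factor site), CCAAT (the CCAAT box) or TATAAA (the TATA box). No match overlaps another.
SLC25A3 promoter, chr12:98593436-98593590, plus strand: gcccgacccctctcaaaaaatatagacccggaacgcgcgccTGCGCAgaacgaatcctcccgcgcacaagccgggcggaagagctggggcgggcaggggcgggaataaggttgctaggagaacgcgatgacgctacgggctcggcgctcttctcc
SLC25A4 promoter, chr4:185143016-185143240, plus strand: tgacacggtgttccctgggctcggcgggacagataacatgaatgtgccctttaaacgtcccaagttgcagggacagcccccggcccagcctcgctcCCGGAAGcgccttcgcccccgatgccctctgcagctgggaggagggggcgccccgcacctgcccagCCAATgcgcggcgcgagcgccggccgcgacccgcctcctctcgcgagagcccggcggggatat
SLC25A13 promoter, chr7:96322148-96322348, minus strand: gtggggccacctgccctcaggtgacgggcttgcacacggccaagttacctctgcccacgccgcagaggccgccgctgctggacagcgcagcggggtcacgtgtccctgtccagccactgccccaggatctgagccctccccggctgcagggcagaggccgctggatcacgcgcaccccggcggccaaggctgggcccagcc
SLC25A14 promoter, chrX:130339669-130339887, plus strand: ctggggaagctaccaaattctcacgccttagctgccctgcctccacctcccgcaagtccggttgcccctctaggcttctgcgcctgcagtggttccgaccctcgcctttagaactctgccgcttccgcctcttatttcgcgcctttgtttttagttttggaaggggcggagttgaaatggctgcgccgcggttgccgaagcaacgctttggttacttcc
SLC25A33 promoter, chr1:9539215-9539464, plus strand: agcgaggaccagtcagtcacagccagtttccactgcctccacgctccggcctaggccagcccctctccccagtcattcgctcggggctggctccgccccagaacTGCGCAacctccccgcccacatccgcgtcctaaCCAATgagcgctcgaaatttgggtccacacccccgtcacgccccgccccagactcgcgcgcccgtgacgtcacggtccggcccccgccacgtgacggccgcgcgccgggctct
SLC25A3 held TGCGCA 209 bases before its start and SLC25A33 held it 146 bases before. SLC25A33 also held a CCAAT box at 113 bases, and SLC25A4 an ETS site at 154 and a CCAAT box at 88. SLC25A14 and SLC25A13 held none of the 4 words in the bases shown. The full window of 250 bases held CCGGAAG for SLC25A14 and CCAAT for SLC25A13 and SLC25A3, not wholly within the bases shown. GC content was 58.0% in the SLC25A14 stretch and 65.2 to 73.1% in the others. Over the whole 250 bases, 40 members had a promoter in the table, and TGCGCA was in 12.5% of them against 7.06% of 27195 promoters, CCGGAAG in 20% against 8.82%, CCAAT in 45% against 33.0% and TATAAA in 7.5% against 11.15%. These are counts of letters, with no test.

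In glucagon cells a few carriers held most of the family's RNA. UMIs are counted once per molecule at the 3' end, so levels were not divided by gene length. SLC25A5, an ADP/ATP carrier of proliferating and secretory tissues, stood at 451, 520 and 460 CPM in replicates 1, 2 and 3. SLC25A6, the ADP/ATP carrier found in most tissues, followed at 393, 385 and 400, and the phosphate carrier SLC25A3 at 243, 237 and 268. These 3 genes made up 57.5% ± 0.85 (SD, n = 3) of the family's 1944 ± 28.4 CPM. SLC25A1, which exports citrate, came next at 116, 117 and 112 CPM. The ranges of these 4 genes did not overlap, so their order was the same in each library.

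**Figure D1:**
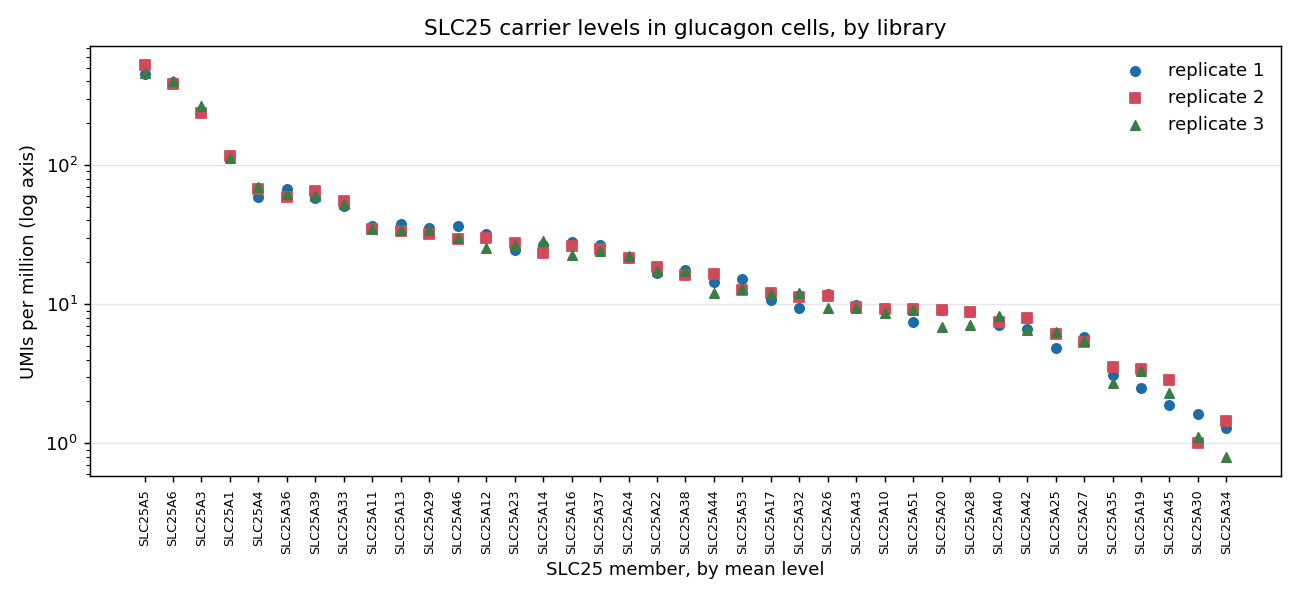
Level of each SLC25 member detected in glucagon cells in every library (CPM, log axis), ordered by its mean; each symbol is 1 replicate. SLC25A5, SLC25A6, SLC25A3 and SLC25A1 stand above 100 CPM and the 3 replicates of most members lie close together.

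Below them the order was less sharp. SLC25A4, the ADP/ATP carrier best known from heart and skeletal muscle, stood at 58.8 to 69.4 CPM, the pyrimidine nucleotide carrier SLC25A36 at 59.1 to 67.5 and the glutathione carrier SLC25A39 at 57.7 to 65.3, and these ranges overlap. SLC25A33, the other pyrimidine nucleotide carrier, lay under all of them at 50.5 to 55.6. Next came SLC25A11 (2-oxoglutarate/malate) at 34.5 to 36.2 CPM and SLC25A13 (aspartate/glutamate) at 33.8 to 37.4, which overlap too. Taking all kept cells, 4 members had at least 100 CPM, 14 had 20 to 100, 23 had 1 to 20 and 7 had less than 1. The 7 were SLC25A2, SLC25A18, SLC25A31, SLC25A41, SLC25A47, SLC25A48 and SLC25A52. Neither SLC25A31, the germ-cell ADP/ATP carrier, nor SLC25A52, a paralog of the NAD carrier SLC25A51, had a UMI in any kept cell. A count of 0 allows up to 0.160, 0.142 and 0.195 CPM in replicates 1, 2 and 3 (3 counts of the total).

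Paralogs that share a substrate contributed unequally in glucagon cells. Of ADP/ATP carrier UMIs, SLC25A5 gave 51.0% ± 2.18, SLC25A6 42.1% ± 2.16 and SLC25A4 6.99% ± 0.48 (SD, n = 3). The aspartate/glutamate carriers were nearly even, with SLC25A13 at 54.7% ± 2.39 and SLC25A12 at 45.3% ± 2.39. Among pyrimidine nucleotide carriers SLC25A36 gave 54.3% ± 2.84. Other groups were led by a single member. SLC25A22 gave 99.9% ± 0.17 of the glutamate carrier UMIs, SLC25A29 97.0% ± 0.86 of those for ornithine and basic amino acids, SLC25A39 88.9% ± 0.94 of those for glutathione, SLC25A16 78.3% ± 2.24 of those for coenzyme A and SLC25A37 75.5% ± 1.71 of those for iron. Among the ATP-Mg/phosphate carriers, SLC25A23 gave 48.4% ± 1.15 and SLC25A24 40.3% ± 1.81.

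The family's summed level was 1944 ± 28.4 CPM in glucagon cells, 2300 ± 117 in GCG-intermediate cells, 2215 ± 22.9 in TPH1 cells and 2305 ± 33.1 in GCG-poor cells (SD, n = 3). In the 2 tested libraries it was 1992 ± 89.8 in INS cells and 2659 ± 265 in collagen cells (SD, n = 2). GCG, INS and TTR took 22.4% ± 1.63 of the UMIs of glucagon cells, 9.57% ± 0.53 in GCG-intermediate and 3.70% ± 1.00 in TPH1 cells. With these 3 genes taken out of the total, the sum was 2505 ± 75.6 in glucagon cells and 2543 ± 114 in GCG-intermediate cells. It was 2300 ± 1.76 in TPH1 cells, 2380 ± 41.5 in GCG-poor cells, 2576 ± 51.0 in INS cells and 2664 ± 264 in collagen cells. On this scale glucagon cells stood above TPH1 cells, and GCG-intermediate cells were close to glucagon cells. SLC25A3, SLC25A5 and SLC25A6 together gave 49.7% ± 2.11 of the family in TPH1 cells (n = 3) and 74.7% ± 2.35 in collagen cells (n = 2).

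The 5 comparisons below use edgeR's quasi-likelihood test on UMIs summed per library and class, with the library as a block and Benjamini-Hochberg adjustment over all genes tested. Log2 fold changes are given ± SE and are relative to the trimmed mean of all genes. In plain CPM the median gene was higher by 0.45 (log2) in TPH1 and 0.33 in GCG-poor cells than in glucagon cells, and lower by 0.25 in the GCG-richest than in the other glucagon cells. It moved by -0.03 in INS cells. In collagen cells the median gene was higher by 0.35 in replicate 2 and 0.06 in replicate 3, with -0.01 as the median over both and -0.22 as the fitted median. Of the 48 members, 37 passed the filter on low counts in all 5 comparisons, 4 in some and 7 in none. In at least 1 comparison 14 members passed the test, and of the other 34 a total of 27 had been tested. No share of all genes called in at least 1 comparison is given here, so that count does not set members apart. The collagen comparison alone called 34.3% of all genes tested. Classes were defined by hormone, TPH1 and collagen UMIs, not by carriers. The comparisons with glucagon cells share those cells as reference, so their results are not independent of each other.

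**Figure D2:**
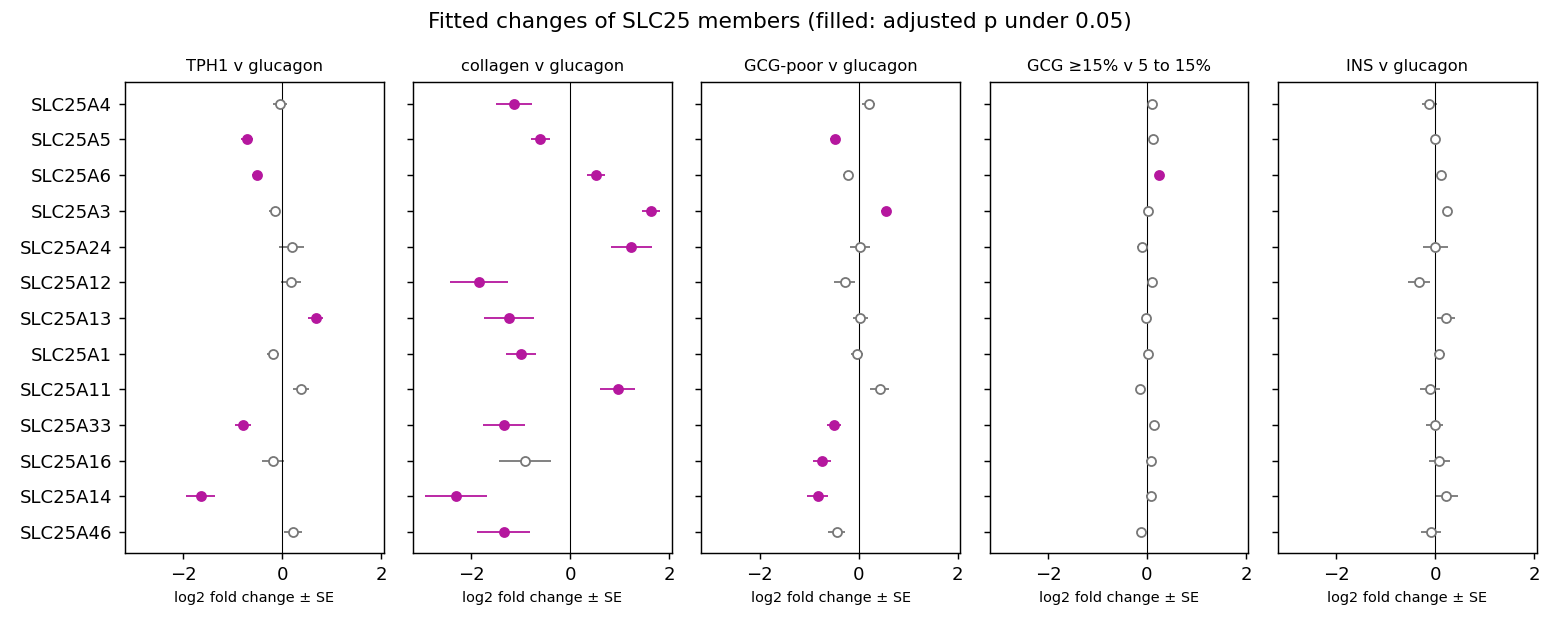
Fitted log2 fold change ± SE of 13 SLC25 members in the 5 comparisons; filled symbols have an adjusted p under 0.05. SLC25A27, which had no UMI in the tested collagen cells, is not drawn. SLC25A14 and SLC25A33 are filled on the negative side in the TPH1, collagen and GCG-poor panels, and SLC25A3 on the positive side in the collagen and GCG-poor panels.

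Relative to the trimmed mean of all genes, TPH1 cells had more of the aspartate/glutamate carrier SLC25A13 and less of 4 other carriers than glucagon cells, although in plain CPM SLC25A6 was nearly level and SLC25A5 was higher in replicate 3. Of 37 members tested, 1 was higher and 4 were lower (13.5%), against 15% of all 12942 genes tested, 6.97% higher and 7.99% lower. The share of members called was thus close to that of all genes, and their median change was -0.09 against -0.02 for all genes. SLC25A13, known as citrin, stood at 75.7, 81.2 and 76.4 CPM in TPH1 cells of replicates 1, 2 and 3 against 37.4, 33.8 and 34.0 in glucagon cells. Every TPH1 value lay above every glucagon value, and the mean was 2.22-fold higher (77.8 ± 3.01 against 35.1 ± 2.03, SD). The fitted change was 0.68 ± 0.15 (adjusted p = 0.00416). It missed the threshold without replicate 3 (0.63, adjusted p = 0.0501), with cells thinned to 5000 UMIs (adjusted p = 0.0915) and with a mitochondrial limit of 15% (adjusted p = 0.173). SLC25A12, its paralog known as aralar, did not pass (0.18 ± 0.21, adjusted p = 0.661), with 69.6, 33.1 and 34.3 CPM. The difference between the paralogs was not tested.

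SLC25A14, a carrier related to the uncoupling proteins and abundant in brain, stood at 16.4, 15.04 and 7.75 CPM in TPH1 cells against 26.6, 23.1 and 28.6 in glucagon cells. The ranges did not overlap, and the fitted change was -1.64 ± 0.29 (adjusted p = 5.0e-04). SLC25A33 stood at 38.9, 48.1 and 41.0 CPM against 50.5, 55.6 and 52.2, again without overlap (-0.79 ± 0.17, adjusted p = 0.00268). SLC25A5 stood at 350, 376 and 479 CPM against 451, 520 and 460, and was higher in plain CPM in replicate 3, while the fit put it lower (-0.71 ± 0.12, adjusted p = 2.6e-04). SLC25A6 was lower in the fit (-0.50 ± 0.10, adjusted p = 0.00174) but nearly level in plain CPM, at 387 ± 33.5 against 393 ± 7.66, and higher there in replicates 1 and 2. The SLC25A6 and SLC25A5 calls thus say that these 2 carriers lay under the general shift of genes in TPH1 cells. The phosphate carrier SLC25A3 (-0.15 ± 0.11, adjusted p = 0.434) and SLC25A11 (0.39 ± 0.16, adjusted p = 0.131) did not pass. Immune markers summed to 1176 CPM in TPH1 cells of replicate 2 against 28.7 and 38.7 in replicates 1 and 3, with PTPRC, TYROBP and CD3E at 0 in replicate 2. Their part in these results was not tested.

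Pyrimidine nucleotide and ADP/ATP carriers were split differently in TPH1 cells. SLC25A36 gave 71.6%, 61.0% and 70.4% of the pyrimidine carrier UMIs (exact Clopper-Pearson 95% intervals 59.3 to 82.0%, 44.5 to 75.8% and 61.6 to 78.2%, which cover counting error only), against 57.2%, 51.5% and 54.1% in glucagon cells. The share was higher in each library, by 9.44 to 16.3 percentage points. SLC25A4 gave 9.87% ± 0.55 of ADP/ATP carrier UMIs against 6.99% ± 0.48, and was higher by 2.29 to 3.77 points. For SLC25A5 the difference ran from -9.04 to 2.47 points, so its direction was not shared by the libraries. For SLC25A13 within its pair it ran from -1.74 to 18.2. An exact two-sided sign-flip test over 3 libraries cannot go below p = 0.25, which the first 2 of these shares reached. In GCG-poor cells SLC25A36 gave 65.0%, 56.5% and 59.7% of the pyrimidine carrier UMIs, also above glucagon cells in each library. The higher share was thus not particular to TPH1 cells.

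Collagen cells had more of the phosphate carrier than glucagon cells. SLC25A3 stood at 1108 and 784 CPM in replicates 2 and 3 against 237 and 268 in glucagon cells, and the 9 collagen cells of replicate 1 held 906 against 243. It was 3.74-fold higher by the means of the tested libraries (946 ± 229 against 253 ± 21.7, SD, n = 2), with a fitted change of 1.63 ± 0.19 (adjusted p = 5.9e-17). The call held in all 12 alternatives run, where the change lay between 1.46 and 1.75. Of 37 members tested, 4 were higher and 9 lower (35.1%), against 34.3% of all 13205 genes, 16.2% higher and 18.1% lower. The members' share was near that of all genes. Their median change was -0.68 against -0.22 for all genes.

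**Figure D3:**
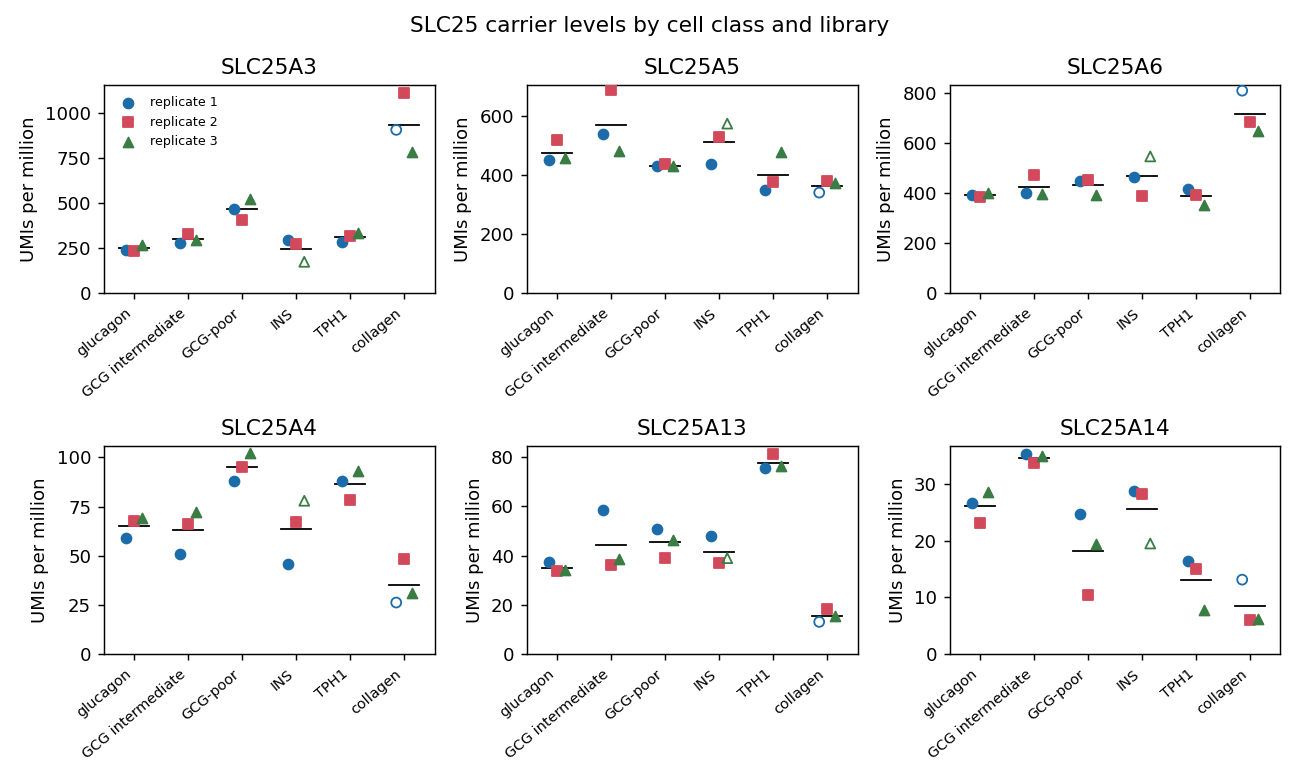
Levels of 6 carriers by cell class in every library (CPM); lines are means over the libraries drawn, and open symbols mark INS or collagen cells of a library with fewer than 10 such cells, which were not tested. SLC25A3 is highest in collagen cells in each library and next highest in GCG-poor cells, SLC25A13 is highest in TPH1 cells, and SLC25A14 is low in TPH1 and collagen cells.

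SLC25A6 was also higher in collagen cells, at 684 and 648 CPM against 385 and 400 (0.51 ± 0.19, adjusted p = 0.0202), with 808 in the 9 cells of replicate 1. SLC25A24, a calcium-regulated ATP-Mg/phosphate carrier, stood at 60.6 and 59.5 CPM against 21.4 and 22.2 (1.23 ± 0.41, adjusted p = 0.0106), though 1 cell held 6 of its 10 UMIs in replicate 2. SLC25A11 stood at 121 and 57.4 against 34.7 and 34.5 (0.95 ± 0.35, adjusted p = 0.024). Its ranges did not overlap, but its 2 collagen values differed more than those of SLC25A24.

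Among the 9 lower members were carriers of several roles. SLC25A14 stood at 6.06 and 6.26 CPM against 23.1 and 28.6 (-2.31 ± 0.63, adjusted p = 0.00131). Both aspartate/glutamate carriers were lower, SLC25A12 by a fitted -1.85 ± 0.59 and SLC25A13 by -1.25 ± 0.51. The citrate carrier SLC25A1 stood at 72.7 and 62.6 CPM against 117 and 112 (-0.997 ± 0.297, adjusted p = 0.0036). SLC25A33 (-1.34 ± 0.42), SLC25A4 (-1.13 ± 0.37), SLC25A5 (-0.61 ± 0.20) and SLC25A46 (-1.35 ± 0.53), an outer-membrane member of the family tied to mitochondrial shape, passed too, with adjusted p-values from 0.00592 to 0.035. SLC25A27, another relative of the uncoupling proteins, had 0 UMIs in the tested collagen cells against 150 in glucagon cells. In the tested libraries it was at least 2.02-fold lower (floor of 3 counts over both libraries). The 9 untested collagen cells of replicate 1 held 1 UMI of SLC25A27. That is 6.57 CPM, which is not lower than in glucagon cells of that library and lies under the floor of 19.7. The SLC25A27 call ended with all 3 libraries in the fit (adjusted p = 0.0623). Most calls rested on few collagen cells. With the DESeq2 Wald test, and with all 3 libraries but without replicate 3, SLC25A3 alone stayed called of the members.

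The ADP/ATP carriers had another order in collagen cells. SLC25A6 gave 61.4% and 61.6% of the group's UMIs in replicates 2 and 3 (95% intervals 54.0 to 68.5% and 58.5 to 64.6%), against 39.6% and 43.1% in glucagon cells. SLC25A5 gave 34.2% and 35.5% against 53.5% and 49.5%, and SLC25A4 4.35% and 2.97% against 6.97% and 7.47%. SLC25A5 led in glucagon cells of each library and SLC25A6 in collagen cells of both. By smaller margins SLC25A6 also led in some libraries of other classes. It gave 48.8% and 46.3% in TPH1 cells and 46.4% and 45.8% in GCG-poor cells of replicates 1 and 2. In INS cells of replicate 1 it gave 49.0%. SLC25A24 gave 74.8% ± 12.1 of the ATP-Mg/phosphate carriers in collagen cells against 39.3% ± 0.76, and SLC25A36 71.0% ± 0.55 of the pyrimidine carriers against 52.8% ± 1.80 (SD, n = 2). With 2 libraries the exact sign-flip test cannot go below p = 0.5.

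**Figure D4:**
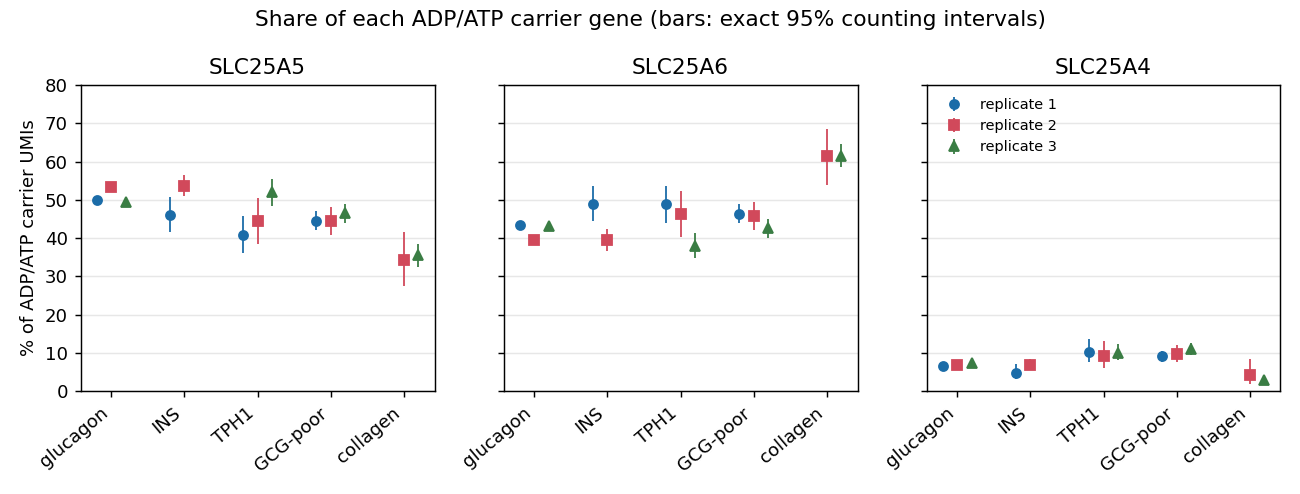
Share of each ADP/ATP carrier gene in the group's UMIs by cell class and library (percent, with exact 95% counting intervals); classes with fewer than 10 cells in a library are left out. SLC25A6 lies at 61.4% and 61.6% in collagen cells, above its 39.6 to 43.5% in glucagon cells, and SLC25A5 lies lower there.

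Cycling markers summed to 1675, 860 and 1053 CPM in collagen cells of replicates 1, 2 and 3 and to 2.37, 27.6 and 2.20 in glucagon cells, with none of the 6 at 0 in glucagon cells. In collagen cells with under 3 cycling-marker UMIs, SLC25A3 stood at 1001, 1196 and 780 CPM, against 906, 1108 and 784 in all collagen cells. Collagen cells also had a lower median share of mitochondrial UMIs, 9.37%, 10.7% and 9.17% against 15.01%, 14.77% and 15.07%. With a limit of 15% for all cells, the SLC25A3 change was 1.58. Duct or progenitor markers summed to 2252 (9 cells), 6451 and 496 CPM in collagen cells against 448, 456 and 495, and their part in the result was not tested.

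GCG-poor cells also had more of the phosphate carrier. SLC25A3 stood at 467, 406 and 523 CPM in replicates 1, 2 and 3 against 243, 237 and 268 in glucagon cells, without overlap (1.87-fold by the means, fitted change 0.55 ± 0.11, adjusted p = 0.00398). Of 38 members tested, 1 was higher and 4 lower (13.2%), against 27.1% of all 13390 genes, 16.3% higher and 10.9% lower. Whether the members and other genes differ in how often they were called was not tested. The members' median change was -0.22 against -0.03 for all genes. SLC25A14 stood at 24.7, 10.4 and 19.3 CPM against 26.6, 23.1 and 28.6, lower in each library though the ranges overlap (-0.83 ± 0.21, adjusted p = 0.0165). SLC25A16, a coenzyme A carrier, stood at 22.9, 18.2 and 16.6 against 28.1, 26.1 and 22.4 (-0.74 ± 0.18, adjusted p = 0.013). SLC25A33 (-0.50 ± 0.14, adjusted p = 0.0255) and SLC25A5 (-0.48 ± 0.10, adjusted p = 0.0067) were lower as well. A mitochondrial limit of 15% gave SLC25A3 a change of 0.84 (adjusted p = 0.0022). The change was 0.53 (adjusted p = 0.0786) when replicate 1 was left out, and of the members SLC25A14 alone then stayed called.

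The GCG-poor class held markers of several cell types. Neural or glial markers summed to 1532, 898 and 1317 CPM in it against 316, 246 and 384 in glucagon cells, and cycling markers to 662, 91.1 and 550 against 2.37, 27.6 and 2.20. Delta-cell markers summed to 2844, 26898 and 917 against 1432, 2197 and 1285, and so were lower than in glucagon cells in replicate 3. Mesenchymal markers summed to 33.8, 93.7 and 306 CPM against 2.44, 2.24 and 7.90 in glucagon cells. Duct or progenitor markers summed to 1072, 1398 and 501 CPM against 448, 456 and 495. The part of the mesenchymal and duct lists in the SLC25A3 result was not tested. GCG-poor cells with at least 3 cycling-marker UMIs held SLC25A3 at 901 CPM in replicate 1 (15 cells) and 615 in replicate 3 (30 cells), and those with fewer held 368, 357 and 495 in replicates 1, 2 and 3, still above every glucagon value. Without GCG-poor cells that carried at least 3 cycling or at least 3 neural-marker UMIs, which left 38, 16 and 44 cells, the SLC25A3 change was 0.26 (adjusted p = 0.590) and of the members SLC25A33 alone stayed called (-0.85, adjusted p = 0.0301). The neural limit is met by most glucagon cells too (591 of 828, 535 of 811 and 538 of 908 with under 3 cycling UMIs), and the reference was not filtered by it.

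GCG-poor cells held UMIs of both glutamate carriers. SLC25A18, a glutamate carrier best known from brain glia, had 3, 2 and 4 UMIs there in replicates 1, 2 and 3, each in a separate cell of 126, 50 and 176, against 0, 1 and 0 in 828, 811 and 908 glucagon cells, where a count of 0 allows up to 0.203 CPM in replicate 1 and 0.300 in replicate 3. Its share of the pair's UMIs was 8.82%, 14.3% and 11.4% (95% intervals 1.86 to 23.7%, 1.78 to 42.8% and 3.20 to 26.7%) against 0%, 0.302% and 0%. Its level in GCG-poor cells was 1.81, 2.60 and 2.21 CPM. No UMI of it was found in GCG-intermediate, INS or TPH1 cells. A count of 0 there allows 1.90 to 3.88, 2.42 to 29.2 and 3.32 to 9.03 CPM per library. In most single libraries a level like that of GCG-poor cells was thus not detectable. The exceptions were GCG-intermediate cells of replicate 3 (1.90 against 2.21) and INS cells of replicate 2 (2.42 against 2.60). GCG-intermediate cells held 1162789, 772458 and 1576958 UMIs of all genes, and GCG-poor cells 1658735, 768338 and 1810579. Floors were not pooled over libraries, and the difference in SLC25A18 between these classes was not tested. Collagen cells had 1 UMI of SLC25A18, in replicate 3. As a class, GCG-poor cells were not sequenced more deeply, with medians of 12738, 15782 and 9502 UMIs against 16438, 21781 and 10482. Those with an SLC25A18 UMI had medians of 13750, 27600 and 15970 UMIs, against 12700, 15080 and 9025 in those without. Their neural or glial markers summed to 1928, 942 and 1192 CPM against 1521, 895 and 1323. Of the endothelial markers CLDN5 alone had UMIs, at 0, 417 and 522 CPM against 40.9, 0 and 14.4. These values rest on 3, 2 and 4 cells. SLC25A18 did not pass the filter on low counts and was not tested. SLC25A22, its partner, stood at 15.6 to 18.7 CPM in GCG-poor and 16.7 to 18.5 in glucagon cells. SLC25A4 gave 9.93% ± 1.00 of the ADP/ATP carriers in GCG-poor cells against 6.99% ± 0.48, higher by 2.58 to 3.56 points.

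The carriers were also followed along the GCG share with GCG itself set aside. SLC25A3 stood at 468, 407 and 524 UMIs per 1000000 non-GCG UMIs in cells under 1% GCG, at 290, 341 and 307 at 1 to 5%, and at 277, 274 and 312 in cells with at least 20%. SLC25A5 stood at 431, 439 and 431 under 1% and at 534, 620 and 595 in cells with at least 20%. SLC25A6 ran from 450, 453 and 394 to 508, 476 and 463. For SLC25A3 the cells under 1% stood above all others in each library, and for SLC25A5 they stood below them.

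**Figure D5:**
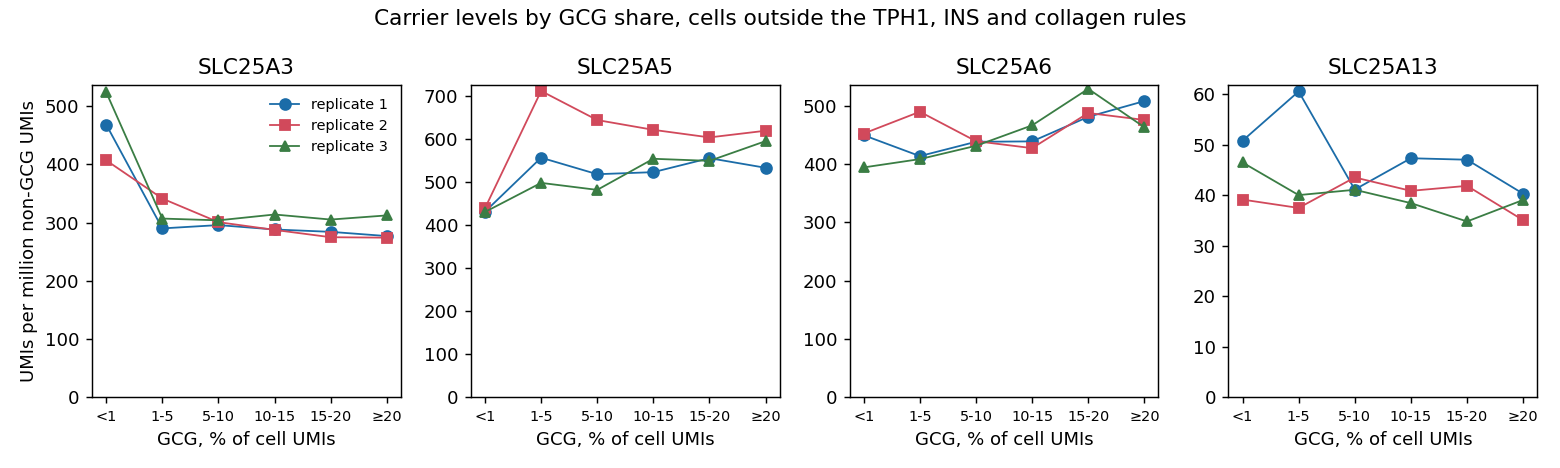
Levels of 4 carriers by the GCG share of the cell, in CPM of non-GCG UMIs; each line is 1 library. SLC25A3 is highest in cells under 1% GCG (468, 407 and 524). From 1% upward it is nearly level in replicates 1 and 3 and falls from 341 to 274 in replicate 2. SLC25A13 is lower in cells with at least 20% GCG than under 1% in each library, with no shared order between these ends.

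Glucagon cells were further split at 15% GCG, into 347, 398 and 227 GCG-richer and 481, 413 and 681 other cells in replicates 1, 2 and 3. SLC25A6 was the 1 member of 38 tested that passed (2.63%, against 2.31% of all 13005 genes, 1.35% higher and 0.969% lower). It stood at 393, 384 and 394 CPM against 393, 386 and 403. It was level or slightly lower in plain CPM and higher by 0.24 ± 0.05 in the fit (adjusted p = 4.9e-04). GCG, INS and TTR took 28.01% ± 0.17 of UMIs in the GCG-richer and 17.9% ± 0.58 in the other cells. SLC25A5 (0.12 ± 0.05, adjusted p = 0.196) did not pass. The SLC25A6 call ended without replicate 1 (adjusted p = 0.104), without the library block (adjusted p = 1), with a mitochondrial limit of 15% (adjusted p = 0.259) and with the split at 10% GCG (adjusted p = 0.228). Without replicate 2, 3 members passed, SLC25A5 among them (0.18, adjusted p = 0.0136).

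No carrier passed the test between INS and glucagon cells, a test that called 35.0% of 2-fold changes on simulated data. Of 40 members none passed by edgeR or by DESeq2, 2 had an unadjusted p under the 0.05 threshold, and 1.33% of all 13341 genes were called, 0.862% higher and 0.465% lower. SLC25A3 stood at 297 and 273 CPM in INS cells of replicates 1 and 2 against 243 and 237 (0.24 ± 0.09, adjusted p = 0.273). In the 7 INS cells of replicate 3 it stood at 175 against 268. SLC25A42, a coenzyme A carrier, rested on 5 UMIs in INS cells (-1.42 ± 0.63, adjusted p = 0.458). For SLC25A5 the 95% interval of the log2 change was -0.16 to 0.16.

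Other genes around the carriers were read from 5 lists of 80 genes. In the list of family members under other symbols, 3 of 5 were tested. UCP2, which moves small metabolites and protons, was higher in TPH1 cells, at 172 ± 5.73 against 64.2 ± 6.38 CPM (0.96 ± 0.13, adjusted p = 1.7e-05), and lower in collagen cells, at 13.9 ± 2.51 against 62.1 ± 7.48 (-2.18 ± 0.45, adjusted p = 9.5e-06). MTCH2, an outer-membrane relative, was lower in TPH1 cells (-0.49 ± 0.15, adjusted p = 0.0376), although its plain level was close, at 82.4 ± 19.3 against 86.0 ± 0.61.

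Among 20 genes of other mitochondrial membrane transport, MPC2, a subunit of the pyruvate carrier, was lower in TPH1 (-0.77 ± 0.11), collagen (-2.005 ± 0.254) and GCG-poor cells (-0.65 ± 0.11). Its partner MPC1 was higher in TPH1 (0.65 ± 0.18) and GCG-poor cells (0.85 ± 0.15). The outer-membrane channels VDAC1 and VDAC2 were higher in collagen (0.98 ± 0.26 and 0.78 ± 0.24) and GCG-poor cells (0.71 ± 0.13 and 0.63 ± 0.13). In all, 1 gene was higher and 1 lower in TPH1 cells (10% of the list against 15% of all genes), 3 and 3 in collagen cells (30% against 34.3%) and 4 and 1 in GCG-poor cells (25% against 27.1%).

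Protein import genes, whose products thread carriers and other precursors into mitochondria, were called in collagen cells in 7 cases higher and 2 lower of 18 tested (50% against 34.3% of all genes), with a list median of 0.43 against -0.22 for all genes. In GCG-poor cells 5 were higher and 0 lower (27.8%, close to the 27.1% of all genes). TIMM10, a chaperone that escorts carrier precursors between the membranes, stood at 123 ± 2.18 CPM in collagen cells against 36.3 ± 0.66 (1.54 ± 0.31, adjusted p = 7.8e-06), and TOMM40, the outer-membrane pore, was higher in collagen (1.37 ± 0.39) and GCG-poor cells (1.08 ± 0.15). None of the 18 passed in TPH1 cells by edgeR, where 5 had an unadjusted p under the threshold. Of the citric acid cycle genes 2 were higher and 0 lower of 18 in collagen cells (11.1% against 34.3%), 0 and 2 in TPH1 cells (11.1% against 15%) and 0 and 0 in GCG-poor cells, where 3 had an unadjusted p under the threshold.

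Enzymes that make or use carrier substrates were lower in 7 cases and higher in 1 of 18 in collagen cells (44.4% against 34.3% of all genes), 5 and 1 in GCG-poor cells (33.3% against 27.1%) and 3 and 0 in TPH1 cells (16.7% against 15%). ACLY, which splits the citrate that SLC25A1 exports, was lower in collagen (-2.09 ± 0.33), GCG-poor (-0.66 ± 0.14) and TPH1 cells (-0.63 ± 0.13). GPT2, the mitochondrial alanine transaminase, was higher in collagen (1.18 ± 0.47) and GCG-poor cells (0.68 ± 0.20).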

How the data were processed

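Single-cell UMI counts were deposited by the authors as unnormalized gene-by-barcode matrices, 1 per library, made with Cell Ranger 4.0.0 on GRCh38 per the submitters' processing notes. The sources used here do not give the strand setting of the counting or its annotation release. From these counts, barcodes with 1000 or more genes and a mitochondrial share up to 20% were sorted into the classes of the report, and summed per library and class with at least 10 cells. Doublets were kept, and Scrublet (scanpy 1.11.5) marked 18, 11 and 18 cells, removed in an alternative. Sums were tested with edgeR 4.0.16 (TMM, filterByExpr, quasi-likelihood F test, Benjamini-Hochberg over all genes, threshold 0.05) in R 4.3.3, with the library as a block because each library supplies both classes compared. SE is the size of the log2 change divided by the square root of F. DESeq2 1.42.0, no filter, no block, left-out libraries, thinning to 5000 UMIs, other class limits and a mitochondrial limit of 15% were alternatives. The test was tested on simulated data with an assumed spread. There it called 45.0%, 35.0%, 16.2%, 66.0% and 88.0% of 2-fold changes in the TPH1, INS, collagen, GCG-poor and GCG-richest comparisons. A member not called may therefore still differ. Each simulation held 196 to 200 changed genes, while the real fits called 1936, 177, 4530, 3632 and 301 genes. The Benjamini-Hochberg cut-off depends on that number, so these percentages are not the power of the reported fits. Named members are those of the isoform groups with at least 10 CPM in a class, up to 10 per comparison past the threshold by size of change, and members at or near 0; named companion genes are up to 3 per list and comparison by the same order, and class-defining genes serve as checks. SLC25A42 in INS cells, and VDAC1, VDAC2, TOMM40, ACLY and GPT2 where they fall outside that order, were chosen after their values were seen. The members and lists were chosen with earlier results of these data known. Intervals and floors cover counting error only. Gene positions are from GENCODE 29 and promoters from RefSeq. One gene of the companion lists is not reported here by name.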

Additional observations from a re-analysis of the deposited data

How the results depend on the processing

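Directions held in nearly all alternatives. Of the values for single named members, 370 kept direction and side of the threshold, 62 missed the threshold, 5 newly passed it, 6 moved and 2 reversed. The reversals were SLC25A3 in INS cells with all 3 libraries, at -0.14 without replicate 1 and -0.02 without replicate 2, and the cause was not tested. The counts that follow show how the calls moved with the settings. Shares of all genes tested are not given for these settings, so the counts do not set members against other genes. In TPH1 cells members called were 3 when thinned and 3 with the 15% mitochondrial limit (4 to 5 with a replicate left out), and genes called were 1106 by DESeq2 and 959 with the 15% limit (1042 to 2175 with a replicate left out). In INS cells genes called were 28 by DESeq2, 18 without the block, 26 when thinned and 95 with the 15% limit (23 to 28 with all 3 libraries and a replicate left out). In collagen cells members called were 1 by DESeq2 and 3 when thinned (1 to 11 with all 3 libraries and a replicate left out), and genes 2143 by DESeq2 and 2653 when thinned (1650 to 4621). In GCG-poor cells members called were 3 by DESeq2, 9 without the filter and 1 without cycling or neural cells (1 to 7 with a replicate left out), and genes 2415, 1819 when thinned and 797 without cycling or neural cells (2011 to 3860). For the GCG-richest cells members called were 0 without the block, 0 with the 15% limit and 0 with the split at 10% (1 to 3 with a replicate left out), and genes 54 by DESeq2, 1 without the block, 115 when thinned, 107 with the 15% limit and 126 with the other split (110 to 320). Fewer cells enter the 15% limit and the left-out fits. The causes of these shifts, cell number among them, were not tested.

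Each library supplied both classes compared, and the reported fits therefore hold the replicate block. Without the replicate block, members called were 5, 0, 13, 5 and 0 and genes called 1666, 18, 5334, 3478 and 1 in TPH1, INS, collagen, GCG-poor and GCG-richest cells. In collagen cells SLC25A6 then missed the threshold (0.52, adjusted p = 0.0652). Leaving out a replicate was not run for INS and collagen cells in the 2-library fits, where 1 library would remain, nor was the collagen limit of 0.2%, under which 1 library had enough cells. The fits with all 3 libraries, with a GCG range of 5 to 15% in the reference and without cycling or neural cells were chosen after seeing the data. The collagen and INS comparisons rest on few cells, 10 and 90 collagen cells and 26 and 59 INS cells, and so on small UMI sums. What this did to the calls was not tested.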
